A study of Saccharomyces cerevisiae with 6 samples.

Results

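YJR6, a haploid strain of the budding yeast Saccharomyces cerevisiae in which MYO1 was replaced by the HIS5+ marker, was compared with MGD353-46D, the wild type parent from which it was made. The comparison covers 3 of the 6 arrays of the series (arrays 4, 5 and 6), chosen by the strain names in the sample labels, and each array was hybridized with 1 YJR6 and 1 MGD353-46D sample. The other 3 arrays compared YJR13 with YJR12, haploid segregants of a cross between YJR6 and BY4741, which carry the same deletion and its wild type allele. YJR13 is MATa and YJR12 MATα, so that pair differs in mating type as well as in MYO1. YJR6 is MATα and carries trp1, ura3, leu2 and his3 mutations, is ADE+, ARG and cyhR, and has the myo1Δ::HIS5+ deletion, and MGD353-46D has the same genotype without the deletion. YJR6 is a single deletion strain, so a change that this isolate carries elsewhere in its genome cannot be told apart from the deletion. RNA came from 3 cultures of each strain, described as biological replicates and grown overnight at 26°C to an OD600 between 0.5 and 0.8 in synthetic medium with 2% glucose, either complete (CSM) or without histidine. The study's text ties the histidine dropout medium to the mutants and CSM to the wild types, and by the genotypes only the mutant could grow without histidine. Medium and genotype therefore cannot be told apart in any ratio below.

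MYO1 encodes the heavy chain of type II myosin, the motor of the actomyosin ring that closes the neck between mother and bud at the end of the cell cycle. As the ring contracts, the chitin synthase Chs2 lays down the primary septum behind it, and glucan and mannoproteins are then added on both sides before wall-degrading enzymes free the daughter. Cells without the ring finish division late and with misshapen septa, and wall damage in yeast is sensed by Wsc and Mid2 proteins that signal through Rho1, protein kinase C and the kinase Slt2. Stress of many kinds also moves a shared programme in yeast, in which chaperones and storage carbohydrate enzymes go up while ribosome production goes down.

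The ratios of the 3 arrays ran YJR6 over MGD353-46D, on a log2 scale throughout, with YJR6 labelled with Cy5 on arrays 4 and 6 and with Cy3 on array 5. Of the 6256 genes with probes, 6198 gave a ratio on each of the 3 arrays, and 5974 lay above background in both strains on all of them. A spot counted as above background when its signal over local background exceeded that of 95% of its channel's negative controls, and 16 genes passed in neither strain on any array. The SD of the log2 ratios over genes was 1.16 on array 4, 0.876 on array 5 and 1.00 on array 6. Across genes the ratios correlated at 0.661 between arrays 4 and 5, 0.745 between arrays 4 and 6, and 0.546 between arrays 5 and 6, as a description over genes that are not independent. The sign of YJR6 over MGD353-46D was the same on all 3 arrays for 53.3% of the genes, while the sign of Cy5 over Cy3 was the same for 19.8%. Only 3 arrays limit the precision, and the 2-colour design gives ratios within a gene, not levels between genes.

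MYO1 was lower in YJR6 on every array. Its log2 ratio was -3.53, -1.46 and -2.77 on arrays 4, 5 and 6 (SD 1.05), with a mean of -2.59 ± 0.38 (limma's adjusted p = 0.0175). Each ± here and below is limma's moderated SE. Its spread is estimated over all 6 arrays and shared across genes, so it is not the spread of arrays 4 to 6. The MYO1 log2 ratio was no longer called without array 4 (adjusted p = 0.0789), without array 6 (adjusted p = 0.0696) and with arrays 4 to 6 fitted alone (adjusted p = 0.0517). The mutant channel read 1.06, 1.10 and 1.03 times its local background, against 4.78, 1.40 and 3.82 times in the wild type channel. MYO1 in YJR6 thus lay near background, above it on 1 of 3 arrays, against 3 of 3 in MGD353-46D. The size of the ratio moved with the background correction: the mean was -1.22 with none, -4.77 with plain subtraction and -5.86 with a normexp offset of 0, and MYO1 was called in each. The smallest ratio belonged to array 5, where the wild type channel was also the dimmest. By the RefSeq R64 annotation MYO1 lies on chromosome VIII, and none of its 3 neighbours on either side was called. YHR022C, the nearest gene on the left, had ratios of 1.40, 1.23 and 0.78 (adjusted p = 0.0849), and MAS2, the nearest on the right, -0.94, 0.46 and -0.61.

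**Figure D1:**
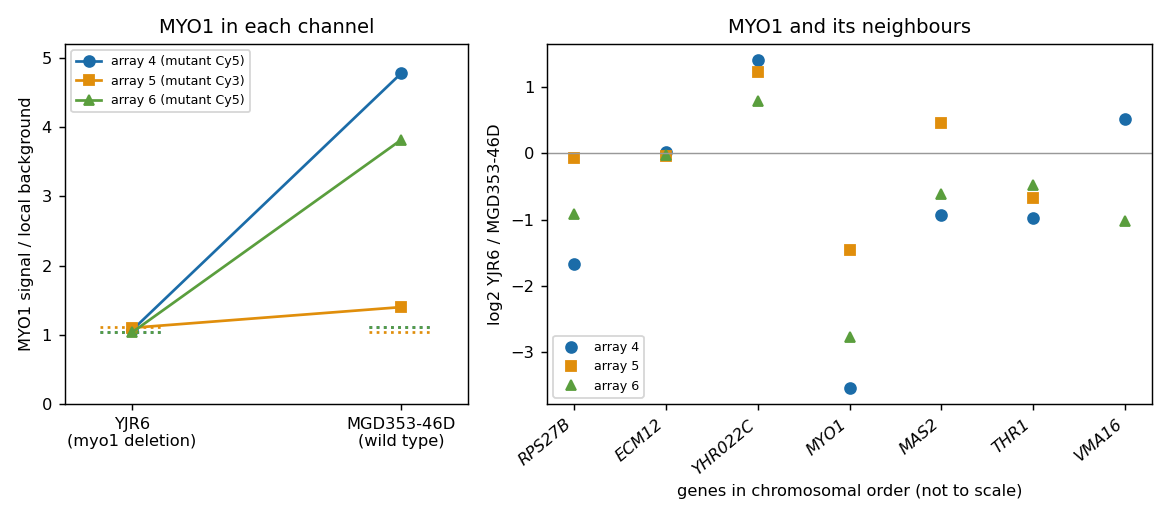
Left, signal over local background of the MYO1 probe in YJR6 and MGD353-46D on each array, with dotted marks at the 95th percentile of the negative controls of that channel. Right, log2 YJR6 over MGD353-46D of MYO1 and the 3 genes on each side on each array. MYO1 sat near background in YJR6 on all 3 arrays, and no neighbour fell as far.

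Over all genes, 622 rose (9.94%) and 513 fell (8.2%) in YJR6 at an adjusted p of 0.05, in limma's moderated test over all 6 arrays with a coefficient for each strain pair. The genes that rose had mean log2 ratios of 0.48 to 6.14 (median 1.26), and those that fell -2.81 to -0.47 (median -1.18). Rises thus reached much further at the normexp offset of 50 used here. At this setting 153 genes rose more than 4-fold and 44 more than 10-fold, while 35 fell more than 4-fold and none more than 10-fold. The size of a fall to near background moves with the correction. MYO1 had a mean of -2.59 here, -4.77 with plain subtraction and -5.86 with offset 0, so the lack of 10-fold falls holds for this setting alone. At least a 2-fold change the same way on each of the 3 arrays was seen upward in 280 genes (4.52%) and downward in 142 (2.29%), of which 244 and 138 were also called. No gene passed an adjusted p of 0.01 (2299 genes had an unadjusted p under 0.05, 1239 of them higher and 1060 lower in YJR6). The calls rest on arrays 4 and 6: without either of them 0 genes were called, without array 5 490 rose and 447 fell, without array 1 of the other pair 302 rose and 279 fell, and with arrays 4 to 6 fitted alone 196 rose and 129 fell. All 1135 called genes kept the sign of their mean ratio in each of these refits. That outcome was largely fixed, as 618 rises and 506 falls had the same sign on all 3 arrays. Leaving out array 1, or fitting arrays 4 to 6 alone, does not change the mean ratio at all. Every count below of genes that rose or fell in YJR6 falls to 0 in the same way without array 4 or array 6. Each such count is to be read against the 9.94% and 8.2% of all genes that rose and fell.

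**Figure D2:**
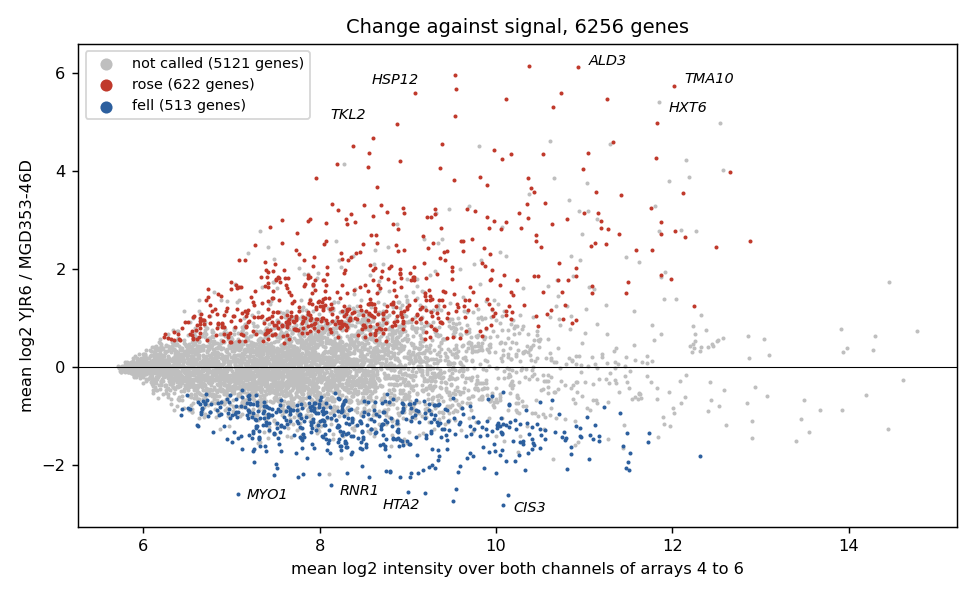
Mean log2 YJR6 over MGD353-46D of each gene against its mean log2 intensity over both channels, with genes that rose in red, genes that fell in blue and the rest in grey. The 622 rises reached a log2 ratio of 6.14 and the 513 falls -2.81.

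The largest mean rise belonged to YBR116C, an uncharacterized reading frame next to TKL2 whose probe may also read RNA from that gene, with log2 ratios of 6.99, 5.42 and 6.01 (mean 6.14 ± 0.57, 70.6-fold, adjusted p = 0.0143). ALD3, a stress-induced aldehyde dehydrogenase, had 7.96, 4.65 and 5.75 (mean 6.12 ± 0.71). HXT5, a hexose transporter of slow-growing cells, had 7.12, 6.07 and 4.69 (mean 5.96 ± 1.10). All 3 were far above 0 on every array, and none came from a single library. TMA10 (5.74 ± 1.43), PHM7 (5.59 ± 0.78), BTN2 (5.58 ± 1.34), MPC3 (5.31 ± 1.21) and DSF1 (5.11 ± 0.85) also rose. MPC3 is a subunit of the mitochondrial pyruvate carrier of respiring cells, and BTN2 sorts misfolded proteins. Of the 15 largest mean rises HXT6, saturated on 1 array, and HSP42 were not called, both with their lowest value on array 5.

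**Figure D3:**
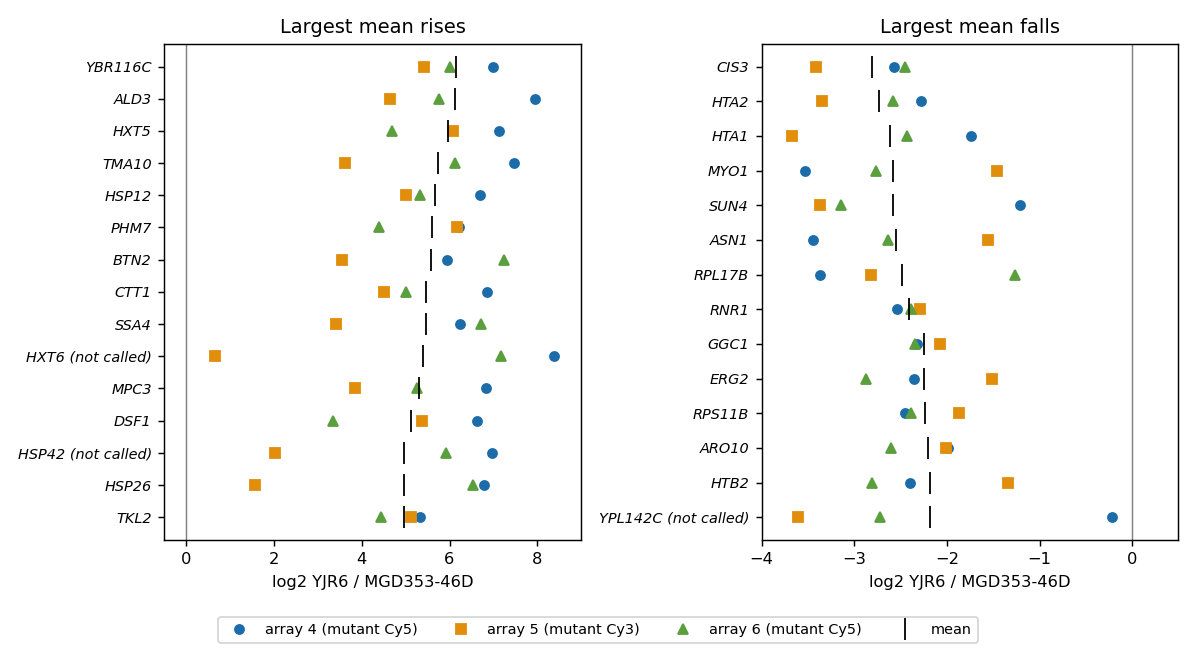
Log2 YJR6 over MGD353-46D on arrays 4 (circles), 5 (squares) and 6 (triangles), and the mean (black mark), of the 15 genes with the largest mean rise (left) and of 14 of the 15 with the largest mean fall (right), among genes of the same sign on all 3 arrays. HXT6 spread from 0.66 on array 5 to 8.38 on array 4, while TKL2 lay between 4.43 and 5.33.

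Heat shock genes were the highest group. Among small heat shock proteins and disaggregases 4 of 7 genes rose and none fell, with a median of 4.36 against -0.004 over all genes. HSP12, a membrane-stabilizing stress protein, had 6.69, 5.01 and 5.33 (mean 5.68 ± 0.65, adjusted p = 0.015). HSP26, which holds unfolded proteins, had 6.80, 1.57 and 6.54 (mean 4.97 ± 0.99, adjusted p = 0.027). The first was high on all 3 arrays and the second high on arrays 4 and 6 and much lower on array 5. HSP104, the disaggregase that pulls proteins out of aggregates, had 5.52, 1.19 and 5.35 and was not called (adjusted p = 0.0585). HSP42 had 6.98, 2.03 and 5.91 (adjusted p = 0.0686), and HSP30 3.43, -0.40 and 6.02 (adjusted p = 0.105).

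Of the Hsp70 and Hsp90 chaperones and their partners, 13 of 18 rose and 1 fell (median 2.49). The rises numbered 4 with a dye term in the fit, 4 with arrays 4 to 6 alone and 0 with arrays scaled to equal spread. SSA4, the stress-induced cytosolic Hsp70, had 6.24, 3.41 and 6.73 (mean 5.46 ± 1.20, adjusted p = 0.0324). HSP82, the inducible Hsp90, had 5.69, 1.54 and 5.57 (mean 4.27 ± 1.00, adjusted p = 0.0372). Its constitutive copy HSC82 had 3.09, 1.37 and 2.87 (mean 2.44 ± 0.60). The co-chaperones FES1 (4.35 ± 1.00) and STI1 (3.58 ± 0.78) and the mitochondrial chaperonin genes HSP60 (1.79 ± 0.39) and HSP10 (1.25 ± 0.24) rose too. The member that fell was SSB1, an Hsp70 that works on the ribosome, with -1.66, -1.27 and -0.80 (mean -1.24 ± 0.27). Its near-identical copy SSB2 had -0.99, -1.17 and -0.33 and was not called, and cross-hybridization between such copies was not tested.

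Of 13 stress transcription factors 5 rose and none fell. USV1 had 5.85, 1.79 and 4.00 (mean 3.88 ± 0.73), and CIN5, XBP1, GIS1 and MSN4 rose by means of 2.73, 1.63, 1.77 and 1.00. HSF1, the heat shock factor itself, had 0.64, 0.79 and 0.50 (adjusted p = 0.081), and MSN2 had 1.07, 1.70 and -0.81. In oxidant defence 5 of 25 genes rose and 1 fell (20% and 4% against 9.94% and 8.2% of all genes). CTT1, the cytosolic catalase, had 6.87, 4.51 and 5.02 (mean 5.46 ± 0.78), and CTA1, PRX1 and CCP1, which remove peroxide in peroxisomes and mitochondria, rose by means of 2.98, 2.92 and 2.85. The thioredoxin genes TRX1 (-1.28, -0.52 and -1.32) and TSA1, a peroxiredoxin (-1.06, -1.86 and -0.12), were not called.

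No storage carbohydrate gene fell. Of 7 trehalose genes 5 rose (median 2.39) and of 12 glycogen genes 6 rose (median 3.07). TPS2, which completes trehalose synthesis, had 4.41, 1.94 and 3.08 (mean 3.14 ± 0.64), and NTH1, which breaks trehalose down, had 3.10, 1.58 and 2.66 (mean 2.45 ± 0.36). Genes of synthesis and of breakdown thus rose side by side. The same held for glycogen: GLG1, which primes the chains, had 3.33, 1.64 and 3.02 (mean 2.66 ± 0.36), GLC3, the branching enzyme, 4.82, 1.08 and 3.21, and GDB1, the debranching enzyme, 4.80, 1.60 and 3.24. GSY1 and GSY2, the glycogen synthases, and GPH1, the phosphorylase, were not called, with array 5 values of 1.51, -0.38 and -0.05.

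Glycerol and osmotic response genes followed, with 8 of 20 up and 1 down (median 1.79). GRE1 had 3.31, 4.07 and 3.66 (mean 3.68 ± 0.26, adjusted p = 0.0143), HOR7 3.30, 2.50 and 3.15, and DAK1, a dihydroxyacetone kinase, 2.97, 2.65 and 2.80. All 3 genes were at or above 2.50 on every array. GPD1, the glycerol-3-phosphate dehydrogenase of the osmotic response, had 4.19, 1.75 and 3.90 (adjusted p = 0.0583), and STL1, a glycerol transporter, 5.05, 4.37 and 2.99 (adjusted p = 0.0535). GPP1, the phosphatase that completes glycerol synthesis, fell (-1.88, -1.79 and -0.60, mean -1.42 ± 0.35), and its paralog GPP2 had 1.75, 1.10 and 2.02 without being called. HOG1, the kinase of the pathway, stayed near 0 (0.10, -0.03 and 0.12).

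In the pentose phosphate pathway 4 of 11 genes rose and 1 fell, and the 4 were the minor copies: TKL2 had 5.33, 5.13 and 4.43 (mean 4.96 ± 0.49, adjusted p = 0.0143), GND2 3.52, 2.71 and 4.93, SOL4 5.49, 1.17 and 4.88, and NQM1 4.29, 3.33 and 3.12. Their major counterparts went the other way or were not called. SOL3 fell (-1.45, -1.41 and -1.31, mean -1.39 ± 0.12), TKL1 had -0.37, -1.08 and -1.67, GND1 -1.02, -1.06 and 0.13, and TAL1 -0.74, -0.51 and -0.33. In glycolysis 2 of 24 genes rose and none fell (8.33% against 9.94% of all genes), and both were sugar kinases: HXK1 had 5.83, 1.32 and 4.75 (mean 3.97 ± 0.94) and GLK1 3.65, 1.55 and 2.49 (mean 2.56 ± 0.57). HXK2, the hexokinase of glucose-grown cells, had -1.01, -2.27 and -1.12 and missed the threshold (adjusted p = 0.059). With median normalization 3 glycolytic genes rose and 9 fell, and with a dye term in the fit 1 rose and 7 fell. The glycolytic list differed between arrays, with medians of -0.65, -1.42 and 0.41 on arrays 4, 5 and 6, and TPI1 spread over -1.32, -3.31 and 0.12.

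Genes used when glucose is scarce were higher. Of 14 genes of gluconeogenesis and the glyoxylate cycle 7 rose and none fell (median 1.80), among them CAT8, their activator (4.25, 3.32 and 2.33), ACS1, an acetyl-CoA synthetase (4.32, 2.97 and 1.76), PCK1 (1.79, 1.11 and 2.41) and ICL1 (1.55, 1.28 and 1.90). FBP1 and MLS1 of the same routes were not called, with means of 0.27 and 0.39. Of 15 hexose transporters and sensors 4 rose (26.7% against 9.94% of all genes): HXT5, HXT13, GAL2 and HXT10. The high-affinity transporter HXT6, saturated on 1 array, had 8.38, 0.66 and 7.18 and its near-identical copy HXT7 0.65 and 7.77 on arrays 5 and 6 and no value on array 4, where its spot was marked poor. HXT7 was likewise saturated on 1 array. These copies were thus far up on arrays 4 and 6 and close to 0 on array 5. HXT3, a low-affinity transporter, had 0.62, -1.91 and 0.46. Of 39 genes of the TCA cycle and respiratory chain 7 rose and none fell (17.9% against 9.94% of all genes), with CYC7, the minor cytochrome c, at 4.12, 1.71 and 2.94.

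Regulators of Ras and protein kinase A, which restrain the stress programme when glucose is plentiful, showed 7 rises among 17 genes and no fall. IRA2, which switches Ras off, had 2.11, 1.55 and 2.46 (mean 2.04 ± 0.22, adjusted p = 0.015), YAK1, a kinase opposed by protein kinase A, 1.83, 1.03 and 1.66, and CYR1, adenylate cyclase, 1.93, 0.94 and 1.22. BCY1, the inhibitory subunit, rose by a mean of 0.60, and the catalytic subunit genes TPK2 (0.93 ± 0.27) and TPK3 (-0.24 ± 0.15) were not called. Activators and inhibitors of the pathway thus rose together. Of 42 autophagy and vacuolar hydrolase genes 10 rose and none fell, with ATG39, a receptor for nuclear autophagy, at 4.14, 2.51 and 2.85 and PEP4, the vacuolar protease A, at 2.11, 1.23 and 1.88. Of 35 proteasome genes 2 rose and 2 fell (5.71% each, against 9.94% and 8.2% of all genes). The rises were RPN4, the transcription factor of proteasome genes (4.23, 2.21 and 2.95), and UBI4, polyubiquitin (3.41, 1.99 and 2.94). The falls were the subunits PRE3 (-1.09 ± 0.27) and RPN9 (-0.70 ± 0.16).

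**Figure D4:**
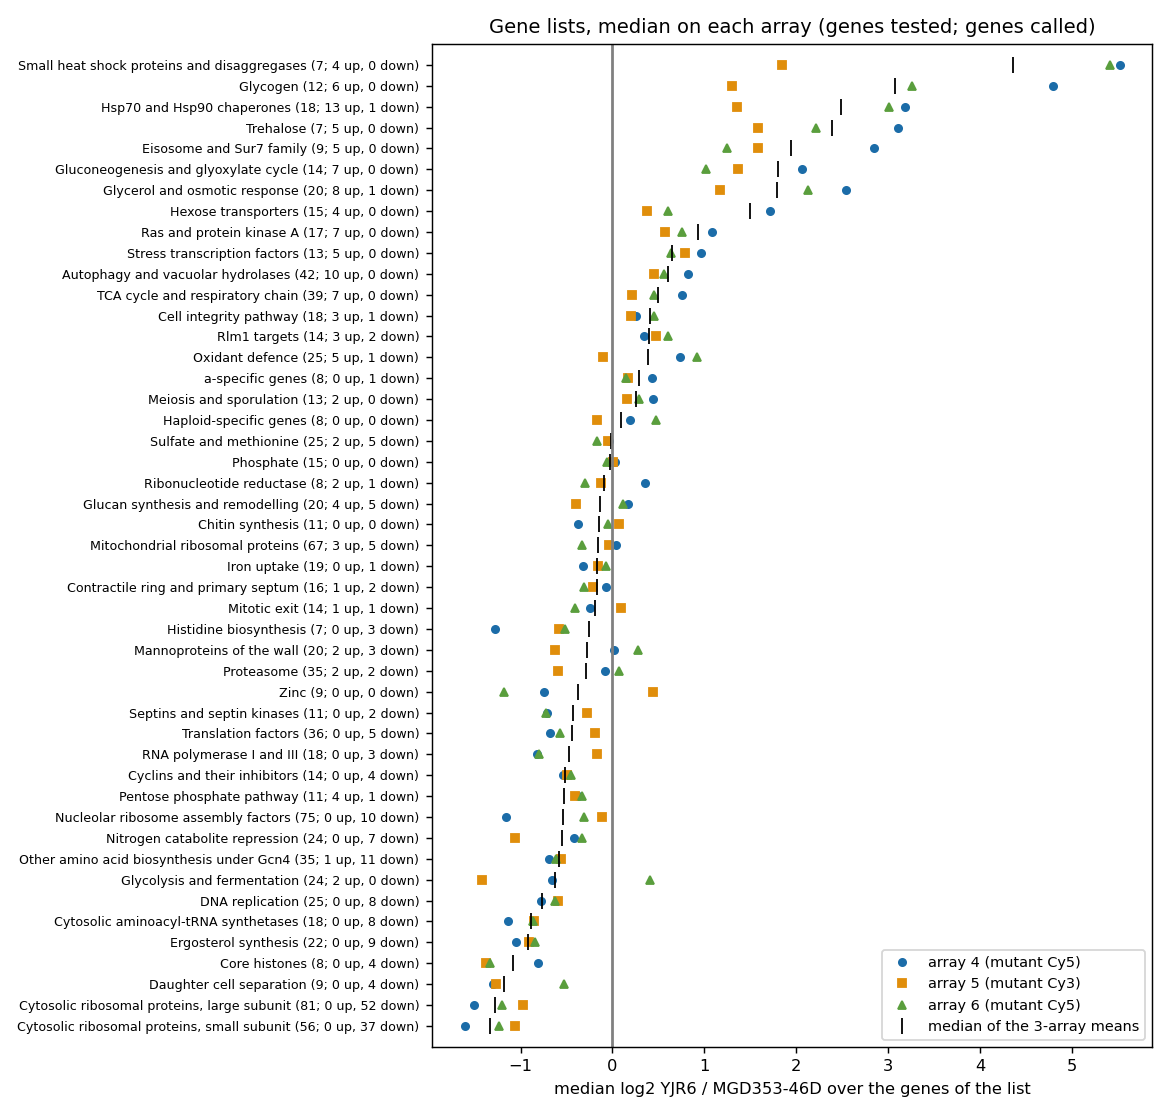
Median log2 YJR6 over MGD353-46D of each gene list of 7 or more genes on arrays 4, 5 and 6 (coloured marks) and of the 3-array means (black mark), with the genes tested and the genes called up and down in brackets. Heat shock, glycogen and chaperone lists lay highest on arrays 4 and 6 and clearly lower on array 5, while both ribosomal protein lists lay near -1 or below on each array.

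The list medians show which groups differed among the 3 arrays. For the small heat shock proteins and disaggregases, the medians were 5.52, 1.85 and 5.41 on arrays 4, 5 and 6, and all 7 genes were lower on array 5 than on the mean of the other two. Of 18 Hsp70 and Hsp90 genes 17 were lower there (median gap -1.78), and of 12 glycogen genes 10 (median gap -2.83), against a median gap of -0.003 over all genes. Over the 618 rises with a value on every array, the smallest ratio was on array 5 for 315, on array 6 for 208 and on array 4 for 95. The 506 such falls were alike, with the smallest change on array 5 for 257, on array 6 for 153 and on array 4 for 96. A smaller change on array 5 was thus not particular to genes that rose. Rises that hardly varied came from other groups: GID10, a substrate receptor of the GID ubiquitin ligase, had 4.70, 4.52 and 4.28, GLO1, the glyoxalase, 3.35, 3.09 and 3.00, and FMP45, of the Sur7 family, 3.34, 3.01 and 3.65. The study's text does not say which culture went on which array. Array 5 differed from the others in dye orientation. It also had more poor spots (192, against 44 on array 4 and 48 on array 6). Its wild type channel was dimmer over all genes, at a median of 1.51 times background against 2.61 and 2.36. Some stress genes were instead brighter there in that channel. HSP26 read 3.43, 24.9 and 3.00 times background in MGD353-46D on arrays 4, 5 and 6, against 87.4, 91.2 and 49.3 in YJR6. HSP42 read 4.96, 23.4 and 8.15 in MGD353-46D, while SSA4, with 4.34, 4.04 and 3.14, was not brighter on array 5. A slide grouping taken from image names put arrays 5 and 6 together and array 4 apart. The part of each was not tested. A dye term in the fit gave 587 rises and 487 falls over all genes. With it the Hsp70 and Hsp90 list had 4 rises and 2 falls, instead of 13 and 1. The small heat shock list had 3 rises instead of 4, and the glycogen list 7 instead of 6.

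At the plasma membrane, 5 of 9 eisosome and Sur7 family genes rose and none fell. Eisosomes are furrows of the membrane that sense stretch and stress. YNL194C had 5.04, 3.26 and 3.94 (mean 4.08 ± 0.49), NCE102 3.04, 1.95 and 3.93, and LSP1, a core subunit, 3.30, 1.36 and 2.50. The other core subunit PIL1 had 2.85, 1.72 and 1.25 (adjusted p = 0.0641), and SUR7 itself 0.06, -0.80 and -0.81.

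In the cell integrity pathway 3 of 18 genes rose and 1 fell, shares of 16.7% and 5.56% against 9.94% and 8.2% of all genes. WSC3, a wall stress sensor, had 2.67, 2.18 and 1.35 (mean 2.07 ± 0.34, adjusted p = 0.0197), and ROM1, an exchange factor that loads Rho1 with GTP, 2.21, 1.53 and 2.00 (mean 1.91 ± 0.33). MTL1, a sensor related to MID2, rose as well (1.09 ± 0.18), and WSC2, another sensor, fell (-1.05, -1.07 and -0.59). None of the kinase genes was called. SLT2 had 0.22, 0.41 and 0.74 (mean 0.46 ± 0.21, adjusted p = 0.165) and MKK1, one of the kinases above it, 0.24, 0.54 and 1.03 (adjusted p = 0.0692), both above 0 on all 3 arrays. PKC1 had -0.51, 0.12 and -0.17, and BCK1 0.05, 0.45 and -0.47. Among 14 targets of Rlm1, the transcription factor under Slt2, 3 rose and 2 fell (21.4% and 14.3% against 9.94% and 8.2% of all genes). GSC2, the stress-induced glucan synthase, had 1.22, 0.54 and 1.50 (mean 1.09 ± 0.25), and SED1, a wall protein, 1.75, 1.18 and 0.81. PIR3 had 3.44, 0.74 and 5.26 and missed the threshold (adjusted p = 0.0531), and PST1, often used as a reporter of wall stress, had -0.82, -1.42 and 1.82.

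Of 20 mannoproteins of the wall 2 rose and 3 fell (10% and 15% against 9.94% and 8.2% of all genes). CIS3, a mannoprotein linked to glucan, fell with -2.57, -3.41 and -2.45 (mean -2.81 ± 0.41, adjusted p = 0.0175), although it is on the Rlm1 list. That was the lowest mean of all genes at a normexp offset of 50, where MYO1, near background in YJR6, had -2.59. SPI1, a stationary phase wall protein, rose with 5.28, 1.45 and 3.27 (mean 3.33 ± 0.76). Of 20 genes of glucan synthesis and remodelling 4 rose and 5 fell (20% and 25% against 9.94% and 8.2% of all genes). The falls were the transglycosylases UTR2 (-2.18, -2.31 and -1.65), GAS1 (-1.54, -2.15 and -1.04), CRH1 (-1.41, -0.94 and -0.99) and GAS3 (-1.21, -1.08 and -1.03) and the glucanase EXG1 (-2.03 and -1.48 on arrays 4 and 6, with a poor spot on array 5). The rises were SKN1 (2.32, 1.29 and 0.59), GSC2, CRR1 and GAS4. FKS1, the glucan synthase of growing cells, had -1.66, -0.94 and 0.84. None of 11 chitin synthesis genes was called: CHS3, the synthase of the lateral wall and of the chitin ring, had -0.52, 0.24 and -0.38, and CHS1, which repairs the septum, 1.52, 1.60 and 0.91 (adjusted p = 0.111).

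Apart from MYO1, the list of ring and septum genes, which also holds the other myosins MYO2 to MYO5, was called about as often as genes at large. Of its 16 genes 1 rose (6.25% against 9.94% of all genes) and 2 fell (12.5% against 8.2%), and MYO2 and MYO3 are among these calls. HOF1, an F-BAR protein that ties ring to septum, had -1.09, -0.53 and -1.35 (mean -0.99 ± 0.23, adjusted p = 0.0371), and MYO2, the cargo myosin, -0.48, -0.77 and -0.65. MYO3, a type I myosin, rose (0.85 ± 0.20). CHS2 had -0.96, -0.28 and -1.34 (adjusted p = 0.0517), and the ring proteins IQG1 and MLC1 had means of -0.17 and -0.24. Of 11 septins and septin kinases CDC12 (-1.62, -0.56 and -1.12) and GIN4 (-1.77, -0.90 and -0.79) fell (18.2% against 8.2% of all genes).

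Genes that free the daughter fell in 4 of 9 cases and rose in none (median -1.18). DSE4, a daughter-specific glucanase, had -2.01, -3.10 and -0.90 (adjusted p = 0.0379), SCW11 -1.69, -0.95 and -0.91, DSE2 -1.66, -1.38 and -0.53, and AMN1 -1.75, -1.27 and -0.52. CTS1, the chitinase that cuts the primary septum, had -0.20, -1.08 and -0.02 and was not called. Of the related SUN and SCW wall proteins, SUN4 fell with -1.21, -3.38 and -3.15 (mean -2.58 ± 0.50) and SCW10 with -3.18, -2.49 and -0.71. SWI5, a transcription factor of early G1, fell too (-1.59, -1.36 and -0.63), the only fall among 14 mitotic exit genes. MOB1, a partner of the exit kinase Dbf2, was the only rise (1.24, 1.31 and 1.04). Each is 7.14% of that list, against 8.2% of all genes that fell and 9.94% that rose. In a culture, fewer cells in one stage of the cycle and less RNA per cell cannot be told apart.

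All 8 core histone genes had negative means, and 4 fell. HTA2, a histone H2A gene, had -2.28, -3.35 and -2.58 (mean -2.74 ± 0.24, adjusted p = 0.0143), HTA1 -1.74, -3.67 and -2.43, HTB2 -2.40, -1.34 and -2.81, and HTB1 -0.71, -1.37 and -2.05. The H2A and H2B genes thus fell on every array, while those of H3 and H4 had means of -0.45 (HHT2) to -0.80 (HHF2) and were not called. Pairs of histone genes code for nearly the same protein, so signal shared between copies was not tested. RNR1, the large subunit of ribonucleotide reductase, was even over the arrays with -2.54, -2.29 and -2.39 (mean -2.41 ± 0.24, adjusted p = 0.0143). It was the only fall among 8 genes of the reductase and its control, while SML1, an inhibitor of the enzyme (0.62, 0.72 and 0.43), and RFX1, a repressor of its genes (1.54, 0.46 and 1.56), rose. RNR2 and RNR4, the small subunits, had means of 0.02 and -0.21. Of 25 DNA replication genes 8 fell and none rose (32% against 8.2% of all genes), with POL12 (-2.20, -1.11 and -1.09) and PRI2 (-1.05, -1.31 and -1.31), subunits of the primase complex, among them. POL30, the sliding clamp, had -2.37, -0.80 and -0.93 and was not called (adjusted p = 0.0615). Of 14 cyclins and inhibitors PCL1 (-1.79, -0.80 and -2.26), CLB1 (-1.89, -1.04 and -1.52), CLN2 (-1.89, -0.54 and -1.56) and PCL9 fell.

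Ribosomal protein genes were the largest group of falls. Of 81 genes of the large subunit 52 fell, and of 56 genes of the small subunit 37, and none rose (64.2% and 66.1% against 8.2% of all genes). The medians were -1.27 and -1.34, and 67 and 50 of the genes were lower on all 3 arrays. RPL17B had -3.37, -2.82 and -1.27 (mean -2.49 ± 0.47), RPS11B -2.46, -1.86 and -2.39 (mean -2.24 ± 0.18, adjusted p = 0.0143) and RPS16B -2.31, -1.76 and -2.08. Most of these genes exist as near-identical pairs, and the copies cannot be told apart with certainty on an array. Some members stayed out of the fall: RPL40B had 0.08, -0.05 and 0.21, RPP1A, a stalk protein, -0.49, 0.53 and -0.23, and RPS14B -0.49, 0.11 and 0.00. Mitochondrial ribosomal proteins were not part of it, with 3 of 67 up and 5 down (4.48% and 7.46% against 9.94% and 8.2% of all genes, median -0.15).

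In the rest of the translation machinery no list had a rise. Of 75 nucleolar assembly factors 10 fell (13.3% against 8.2%), with NOP56 at -1.79, -2.16 and -0.83 and NSA2 at -2.43, -0.98 and -1.01. The list stood lower on array 4, with a median of -1.16, than on arrays 5 and 6 with -0.12 and -0.31. Of 18 subunits of RNA polymerases I and III 3 fell: RPA43, RPA190 and RPC53, with means of -1.24, -0.91 and -0.92. Of 36 translation factors 5 fell, among them the elongation factor YEF3 (-1.70, -1.49 and -0.87) and the cap-binding protein CDC33 (-1.11, -0.74 and -1.26), and none rose. Of 18 cytosolic aminoacyl-tRNA synthetases 8 fell and none rose (median -0.88). WRS1, for tryptophan, had -1.80, -1.21 and -2.28 (mean -1.76 ± 0.25) and KRS1, for lysine, -1.26, -1.62 and -1.56, while HTS1, for histidine, had -0.48, -0.96 and -0.57 and was not called.

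Histidine synthesis matters here because the media differ in histidine. HIS1, the first enzyme of the pathway, had -2.31, -0.81 and -1.71 (mean -1.61 ± 0.29, adjusted p = 0.0213), HIS7 -1.35, -0.89 and -1.21, and HIS2 -1.28, -0.74 and -0.66, so 3 of 7 fell and none rose. HIS4 ran from -1.59 on array 4 and -0.58 on array 5 to 1.56 on array 6. HIS3, deleted in both strains, had -0.01, 0.00 and -0.10. Of 35 other amino acid genes under Gcn4, the activator of the starvation response, 11 fell and 1 rose. The falls included LYS9 (-0.90, -2.43 and -2.50), LYS12 (-1.40, -1.90 and -2.14), ARG1 (-2.30, -1.39 and -1.60) and ILV1 (-2.29, -0.72 and -1.85). The rise was LEU1 (2.35, 4.02 and 2.80, mean 3.06 ± 0.76, adjusted p = 0.0417), which is controlled by Leu3. ASN1, an asparagine synthetase, fell with -3.45, -1.56 and -2.63.

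Of 24 genes under nitrogen catabolite repression 7 fell and none rose. MEP2, the high-affinity ammonium transporter, had -2.51, -2.53 and -1.28 (mean -2.11 ± 0.31), GAP1, the general amino acid permease, -2.13, -3.45 and -0.71, and GLN1, glutamine synthetase, -1.85, -1.63 and -0.76. PUT4, the proline permease, pointed the other way without passing the test (4.74, 2.23 and 1.76, adjusted p = 0.0731). Among 25 sulfate and methionine genes 2 rose and 5 fell (8% and 20% against 9.94% and 8.2% of all genes). MET17 had -2.67, -1.41 and -1.29 and SAM2 -1.61, -1.50 and -1.62. None of 15 phosphate genes and none of 9 zinc genes was called at an adjusted p of 0.05 by limma, and 1 of 19 iron uptake genes was, FRE6 (-0.69 ± 0.18). Of the marker loci, LEU2 had 0.21, 2.66 and 1.37, URA3 0.38, 0.08 and 0.57, and TRP1 0.73, -0.49 and -0.68, and none was called.

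Ergosterol synthesis fell in 9 of 22 genes and rose in none (median -0.92). ERG2, the sterol isomerase, had -2.36, -1.51 and -2.87 (mean -2.25 ± 0.33, adjusted p = 0.0175), ERG3, a desaturase, -1.80, -1.04 and -1.57, ERG6, a methyltransferase, -1.83, -1.41 and -1.10, and ERG4 -1.73 and -1.38 on arrays 5 and 6. Of the 9 falls, 6 lay in the later steps. Of the early enzymes, HMG1, the rate-limiting reductase, had a mean of -0.27 and ERG9 -0.04, while ERG13 (-1.04 ± 0.17) and ERG12 (-1.20 ± 0.26) fell. GGC1, a mitochondrial GTP carrier (-2.32, -2.08 and -2.35), and ARO10, a decarboxylase of amino acid breakdown (-1.99, -2.01 and -2.60), were among the 15 largest falls. YPL142C, in the same 15, was not called (-0.21, -3.61 and -2.73). ERG4 had no value on array 4, where its spot was marked poor.

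Both strains are MATα by the study's strain list, and the genes of the 2 mating types were compared between them. A ratio between strains of the same mating type cannot show which type that is. None of the 4 α-specific genes was called, and they spread between arrays: MF(ALPHA)1, which encodes the α pheromone, had -2.18, -0.51 and 1.00, STE3 -1.61, -0.31 and 0.62, and SAG1, the α agglutinin, 0.08, 1.34 and 3.89. All 4 had their lowest ratio on array 4 and their highest on array 6. Of 8 a-specific genes only AFB1 was called (-0.87 ± 0.20), while 7 were higher in YJR6 on all 3 arrays without being called (list median 0.29). None of 8 haploid-specific genes was called. Of 13 meiosis and sporulation genes IME2 (1.35, 1.13 and 0.62) and SPO11 (0.75, 0.53 and 0.51) rose (15.4% against 9.94% of all genes).

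Some genes were also followed by RT-PCR in the study, picked from these same samples, so their values here are not independent evidence of a direction. Of these 8 genes 5 rose in YJR6 and 1 fell: IRA2, SPI1 and ROM1 as above, ECM4 with 1.40, 1.64 and 2.34 (mean 1.79 ± 0.43), PAL2 with 2.76, 1.45 and 1.86 (mean 2.02 ± 0.32), and RPL30 with -1.20, -2.51 and -1.65 (mean -1.79 ± 0.28, adjusted p = 0.0189). SLT2 and RPS31 (-0.69, -2.09 and -0.68, adjusted p = 0.0698) were not called.

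The YJR6 pair was then set against the YJR13 pair, which has another genetic background, its own wild type and a difference in mating type. The test of the difference called 4 genes (0.0639%), all copies of ASP3, the secreted asparaginase. ASP3-1, ASP3-2, ASP3-3 and ASP3-4 had mean log2 ratios of -0.07, 0.06, 0.14 and 0.04 in the YJR6 pair, against 4.92, 4.89, 4.91 and 4.83 in the YJR13 pair (adjusted p = 0.00336 to 0.0037). In the YJR6 pair both channels lay close to background, with ASP3-1 at 1.21, 1.22 and 1.13 times background in YJR6 and 1.25, 1.16 and 1.23 times in MGD353-46D. The 4 copies are near-identical and their probes may read the same RNA. With arrays scaled to equal spread no difference was called, and with every flagged spot left out 1 was. ASP3 in the YJR6 pair thus showed no ratio, and the difference came from the other pair.

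Other differences were large without being called. LYS9 had -0.90, -2.43 and -2.50 in the YJR6 pair, against 2.93, 0.73 and 1.56 on arrays 1, 2 and 3 of the YJR13 pair (difference -3.68 ± 0.69, adjusted p = 0.554). LYS12 (-1.81 against 0.18), CTP1 (-1.63 against 0.15) and IDP1 (-0.70 against 1.30) differed the same way. LYS9 and LYS12 belong to lysine synthesis. SAG1 had a mean of 1.77 in the YJR6 pair, against -2.70 in the YJR13 pair (difference 4.47 ± 0.97, adjusted p = 0.554). SAG1 is α-specific and YJR13 is MATa against MATα in YJR12, so in that pair mating type and deletion cannot be told apart for this gene. Higher in the YJR6 pair were also GID10 (4.50 against 1.46), MAN2 (4.15 against 1.02) and DSF1 (5.11 against 1.65). Signal shared between the homologs MAN2 and DSF1 was not tested. YIL082W and YIL082W-A, of a Ty3 retrotransposon, had means of 3.31 and 3.12 in the YJR6 pair, against 0.00 and 0.01. Their probes may read the same RNA, so these values are not separate observations. MET6 and ADH6 had -1.08 and -1.07 in the YJR6 pair, against 0.55 each. Close to each other in both pairs were HTA2 (-2.74 against -2.68, difference -0.06 ± 0.34) and HTA1 (-2.62 against -2.52, difference -0.10 ± 0.49).

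**Figure D5:**
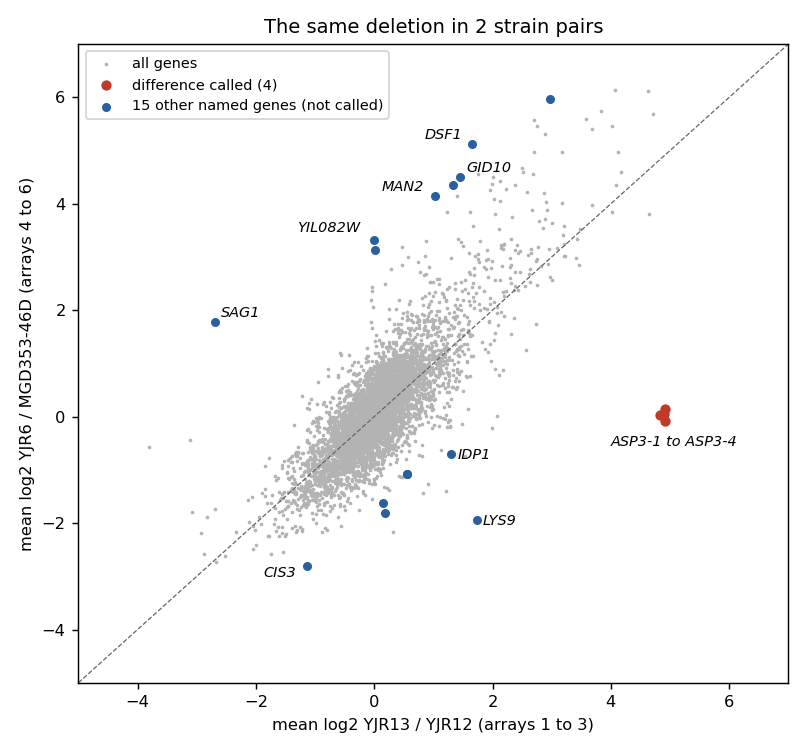
Mean log2 ratio of each gene in the YJR6 pair (arrays 4 to 6, vertical) against the YJR13 pair (arrays 1 to 3, horizontal), with the line of equal values dashed. The 4 ASP3 genes, in red, lay near 0 in the YJR6 pair and near 4.9 in the YJR13 pair, and the blue points are other named genes whose difference was not called.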

How the data were processed

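The study hybridized 6 two-channel Agilent arrays with amplified RNA, of which arrays 4, 5 and 6 held YJR6 against its parent. The authors deposited spot intensity values and local backgrounds read by ImaGene 6.0.0 (per the file headers), and also log2 ratios, which were used as an alternative. Intensities were corrected by normexp with an offset of 50 and normalized by loess within each array in limma 3.58.1 (R 4.3.3), with poor spots left out and spots of a gene averaged. Ratios were turned to mutant over wild type, and all 6 arrays were fitted together with a coefficient for each strain pair, moderated by empirical Bayes, with Benjamini-Hochberg adjustment over 6256 genes. The test was tried on simulated data. Nothing beyond the triplicate cultures says how far the replicates were independent. Members and the 53 gene lists were chosen with earlier results of these data known. Named were MYO1, the marker loci, the 15 largest mean rises and falls of one sign on all arrays, up to 6 genes of each list by absolute mean, the 8 largest differences between pairs each way and the RT-PCR genes. Other list members were named for their role or for lack of change after their values were seen. Alternatives were other background corrections, normalizations and filters, the arrays alone, a dye term, a slide block, the deposited ratios and leaving out each array. Promoter motifs were not analysed here, and a few genes that the rule names are not reported here.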

Additional observations from a re-analysis of the deposited data

Results flagged for a closer look

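The 4 genes whose change differed between the strain pairs by limma's test of the difference were ASP3-1, ASP3-2, ASP3-3 and ASP3-4, with log2 differences of -4.993, -4.834, -4.775 and -4.792, YJR6 pair minus YJR13 pair. In the YJR6 pair each had a ratio near 0 on every array, with ASP3-1 at -0.03, -0.33 and 0.14 on arrays 4, 5 and 6. The copies are near-identical, so the 4 values are not separate observations.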

How the results depend on the processing

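The 622 rises and 513 falls came to 222 and 166 with arrays scaled to equal median absolute deviation, and to 196 and 129 with arrays 4 to 6 alone. Leaving out 1 array gave 0 to 593 rises and 0 to 452 falls, with 0 without array 4 or array 6 (smallest adjusted p 0.0672 and 0.0611). Genes at least 2-fold the same way on all 3 arrays, 280 higher and 142 lower, numbered 164 and 58 with no background correction and 428 and 291 with a normexp offset of 0. The lower ones numbered 255 with plain subtraction, 283 with median normalization and 67 with scaling. Leaving out array 4, 5 or 6 gave 327 to 490 higher and 204 to 328 lower, with one array fewer to pass. The 4 differences between pairs became 9 with offset 0, 0 with scaling and 1 when all spots with any mark were dropped, and 4 to 5 without 1 array. The MYO1 log2 ratio stayed at -2.59 with arrays 4 to 6 alone but was not called (adjusted p = 0.0517), and ranged from -3.15 to -2.11 without 1 array. It was -1.22 with no background correction, -4.77 with plain subtraction and -5.86 with offset 0. The RNR2 log2 ratio reversed to -0.84 with median normalization (adjusted p = 0.0413). The cause of these shifts was not tested. The 1135 called genes kept their sign in each setting where they had a value (785 of 785 for genes above the median intensity). For settings that refit the same ratios this was largely fixed, as 618 rises and 506 falls had the same sign on arrays 4 to 6. No paired analysis was possible because the strain pairs share no replicate number, and mutant and wild type already share each array. With 3 arrays and channels at a median of 1.51 to 2.61 times background, small changes of dim genes are poorly measured.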

Other observations

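The genes below were picked after their values were seen, with no list or count behind them, and all but HXT13 lie outside the lists. The mannitol dehydrogenase homologs DSF1 (6.63, 5.37 and 3.34 on arrays 4, 5 and 6) and MAN2 (5.67, 4.32 and 2.45) rose in YJR6. Their neighbours in the genome, the transporters HXT13 (3.73, 3.21 and 0.54) and HXT17 (4.19, 2.26 and 1.98), rose too, as did HXT15 (2.85 ± 0.61) and HXT16 (2.99 ± 0.67). All 6 were highest on array 4 and lowest on array 6. These transporters are near-identical, so their probes may read the same RNA, and signal shared between DSF1 and MAN2 was not tested. POT1, the peroxisomal thiolase of fatty acid breakdown, rose with 6.10, 4.46 and 3.42. PXA1, a peroxisomal fatty acid transporter (3.20, 2.35 and 2.06), and YAT2, a carnitine acetyltransferase (3.32, 2.56 and 1.58), rose too. KAR2, the Hsp70 of the endoplasmic reticulum, rose with 2.92, 2.01 and 3.04.

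Among falls picked in the same way were the fatty acid elongases ELO2 (-1.92, -1.50 and -2.14) and ELO3 (-2.81, -1.57 and -1.78), which make very long chains for sphingolipids. Of genes that supply or attach mannose, those picked were PSA1 (-1.66, -3.41 and -1.13), SEC53 (-1.93, -1.97 and -1.14), MNN1 (-2.22, -2.14 and -0.82) and PMT4 (-1.40, -1.86 and -1.10). The cohesin subunits MCD1 (-2.44, -0.53 and -2.14) and IRR1 (-1.49, -1.64 and -1.19) fell.

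The deposited log2 ratios matched each array's spots in row order with a correlation of 1, while matching by feature number gave correlations of -0.0097 to 0.0254, so row order was used.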
